A study of Mus musculus with 6 samples.

Results

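Endothelial nuclei of the mouse lumbar dorsal root ganglion, the cells that line its blood and lymph vessels, were chosen from 1 single-nucleus RNA library by the transcripts they held. A nucleus with at least 500 unique molecular identifiers (UMIs, each standing for 1 captured transcript), at least 300 genes and a mitochondrial share of at most 5% was taken as endothelial under 3 conditions. It had a UMI of at least 2 of the 5 endothelial markers Pecam1, Cdh5, Flt1, Cldn5 and Egfl7, of at most 1 of the 4 neuronal genes Snap25, Syt1, Rbfox3 and Elavl3, and none of the glial gene Sox10, the mesenchymal gene Pdgfra and the macrophage gene Csf1r. This gave 152 nuclei, 2.63% (exact 95% interval 2.23 to 3.07) of the 5786 ganglion nuclei kept and a small part of the 56759 cells and nuclei kept over the 6 libraries of the series. The ganglion library pooled 4 male and 4 female C57BL/6 mice at postnatal day 14 (P14). The other 5 libraries were single cells of sciatic nerve, each pooled from 13 to 22 C57BL/6 mice of both sexes at P0, P7, P14, P28 or P60. No animal carried a transgene or received a treatment, as far as the labels say. The study made the ganglion library to look for receptor components of the secreted guidance protein SEMA3B on sensory neurons, and its labels name neurons as the cell type, while 697 of the kept nuclei met the definition of neurons used here.

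Endothelial cells share a set of surface receptors, junction proteins and transcription factors, and differ between vessel types in what they let through. Capillaries of the brain and of the inner compartment of nerves restrict passage with tight junctions, few vesicles and dedicated transporters. In the brain this is under the control of Wnt and beta-catenin signalling. Vessels of many other organs carry fenestrae or vesicle openings closed by a diaphragm of the protein PLVAP. The vessels around sensory neuron cell bodies of the ganglion are known to be more permeable than those of the nerve.

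The ganglion library held 20845972 UMIs in 5871 barcodes. The endothelial nuclei held 289573 UMIs together, with a median of 1716 per nucleus (539 to 6065) and a median of 1124.5 genes. Neurons were much deeper, with a median of 10305 UMIs, and glia (1815 nuclei), mesenchyme (241) and macrophages (61) had medians of 2146, 2598 and 1986. Levels are given as counts per 1000000 summed UMIs of a class (CPM), and intervals of levels, shares and ratios are exact at 95% and cover counting error only. There was 1 library of the ganglion, so no difference has a replicate check and no p-value was computed. The 5 markers and the genes compared below were read in the same nuclei that the rule selected, so every ratio of endothelial over other nuclei is a description of the class and not a test. The title of the library speaks of cells, but its labels give nuclear RNA, and its median mitochondrial share was 0.0631% against 2.30% to 3.04% in the nerve libraries. Of the 152 barcodes, 1 was also a kept barcode at P0 and 1 a kept barcode at P14 in the nerve, the latter an endothelial cell by the same rule.

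The 5 markers were unevenly detected. Egfl7, a secreted protein of vessel walls, had a UMI in 129 of the 152 nuclei, Flt1, a receptor for vascular endothelial growth factor (VEGF), in 127, and Pecam1, an adhesion molecule of endothelial contacts, in 120. Cdh5, the cadherin of endothelial adherens junctions, had one in 70 and Cldn5, the main claudin of endothelial tight junctions, in 26. Of the nuclei, 44 had 2 of the markers, 61 had 3, 34 had 4 and 13 had all 5. When a marker was left out and the nuclei were chosen by at least 2 of the other 4, Egfl7 was found in 81.5% of 124 nuclei, Flt1 in 80.3% of 127, Pecam1 in 75.6% of 131, Cdh5 in 43.1% of 144 and Cldn5 in 13.7% of 146.

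Genes that the rule did not use but that endothelial cells share were present throughout the class. All 30 genes of a pan-endothelial list had UMIs in endothelial nuclei, with a median of 11 of them per nucleus (0 to 22). At least 3 were found in 145 nuclei, at least 10 in 86, and under 3 in 7. Summed over the list, the level was 12967 CPM (12556 to 13389) in endothelial nuclei, 156 in neurons, 85.8 in glia, 328 in mesenchyme and 641 in macrophages. Emcn, the vascular sialoglycoprotein endomucin, stood at 1516 CPM (1378 to 1665) with a UMI in 114 nuclei, against 9.99 CPM in all other ganglion nuclei. Adgrl4, an adhesion receptor of endothelium, stood at 881 against 2.82 CPM. Kdr, the main VEGF receptor, stood at 394 against 1.98 CPM, and Tek and Tie1, the receptors of the angiopoietin system, at 445 against 16.2 and 176 against 1.73. The transcription factor genes Erg (376 against 4.25 CPM), Mecom (1461 against 11.7) and Sox17 (152 against 0.594) were also concentrated in the class. All 24 list genes with at least 50 UMIs in the library were at least 4-fold higher in endothelial than in other nuclei, with a median ratio of 92.7. Over all 16258 genes so tested, 754 were at least 4-fold higher (4.64%) and 1011 at least 4-fold lower (6.22%), with a median ratio of 1.23, or 0.997 with sums of 0 taken as 0. These shares describe a contrast that the rule itself set up. They are also the shares to set beside each count of list genes below.

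The 250 bases before the transcription start of genes that mark the class are shown for a reader to compare, from RefSeq on GRCm38.p6. Egfl7 (chr2:26583615-26583864), Emcn (chr3:137340828-137341077), Robo4 (chr9:37401722-37401971) and Cldn5 (chr16:18776597-18776846) lie on the plus strand and Flt1 (chr5:147726012-147726261) on the minus strand. Egfl7 has 3 listed starts, of which the second along the chromosome is printed. Capitals mark CAGGAAG or CCGGAAG on either strand (CTTCCTG or CTTCCGG as printed), sequences that the ETS family of transcription factors, to which Erg and Fli1 belong, is known to bind. The sequences were:
Egfl7: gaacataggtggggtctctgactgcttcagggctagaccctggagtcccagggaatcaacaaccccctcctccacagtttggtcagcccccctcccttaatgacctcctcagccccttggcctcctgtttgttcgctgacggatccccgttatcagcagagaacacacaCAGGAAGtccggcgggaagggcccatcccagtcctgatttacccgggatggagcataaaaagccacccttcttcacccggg
Emcn: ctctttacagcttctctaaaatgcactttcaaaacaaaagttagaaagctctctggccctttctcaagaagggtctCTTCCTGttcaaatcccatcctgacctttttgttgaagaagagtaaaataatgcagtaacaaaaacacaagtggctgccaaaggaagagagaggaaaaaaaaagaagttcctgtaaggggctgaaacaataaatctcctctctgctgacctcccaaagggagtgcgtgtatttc
Robo4: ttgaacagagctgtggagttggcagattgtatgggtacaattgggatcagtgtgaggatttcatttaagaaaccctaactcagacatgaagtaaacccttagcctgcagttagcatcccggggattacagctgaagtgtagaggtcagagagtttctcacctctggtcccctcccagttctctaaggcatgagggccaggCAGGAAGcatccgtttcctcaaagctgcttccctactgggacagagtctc
Cldn5: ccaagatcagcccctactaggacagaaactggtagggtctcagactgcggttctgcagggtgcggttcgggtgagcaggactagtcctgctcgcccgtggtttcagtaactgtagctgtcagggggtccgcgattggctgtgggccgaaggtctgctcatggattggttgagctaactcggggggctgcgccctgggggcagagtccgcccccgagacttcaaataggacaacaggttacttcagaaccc
Flt1: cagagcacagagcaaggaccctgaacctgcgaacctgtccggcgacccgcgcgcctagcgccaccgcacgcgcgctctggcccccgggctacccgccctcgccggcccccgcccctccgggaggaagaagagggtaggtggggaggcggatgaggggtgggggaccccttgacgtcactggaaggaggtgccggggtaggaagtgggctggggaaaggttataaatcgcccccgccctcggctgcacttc
Of the 30 pan-endothelial genes 19 were matched, and 8 of their 24 starts (33.3%) held 1 of these sequences in the window, against 17.0% of all 32851 listed starts. In the fixed lists described below, 3 of 27 starts of barrier transport genes, 2 of 18 of barrier programme genes, 1 of 9 of fenestration genes and 5 of 15 of venous genes held one. Egfl7, Emcn and Robo4 each hold 1 in the stretch printed, and Cldn5 and Flt1 hold none. Pecam1 and Cdh5 were not matched.

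Nuclei close to the threshold differed in these genes. The 44 nuclei with exactly 2 markers had a pan-endothelial level of 8628 CPM and a median of 1002 UMIs, and 11 of them were among the nuclei with the highest doublet scores. The 199 nuclei that met the rest of the rule with exactly 1 marker had 580 CPM, and the 2081 with none had 215. Another 38 nuclei had at least 2 markers but were left out, 16 by neuronal genes, 12 by Sox10, 12 by Pdgfra and 2 by Csf1r. Their pan-endothelial level was 2361 CPM.

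Transcripts of other cell types were measured in the same nuclei. The 18 neuronal list genes summed to 3194 CPM, against 3069 in glia, 5127 in mesenchyme, 3004 in macrophages and 25818 in neurons. Calca, the precursor of a neuropeptide of sensory neurons, had a UMI in 34.2% of endothelial nuclei, 39.3% of glia, 37.3% of mesenchyme and 36.1% of macrophages. Apoe, an abundant glial lipoprotein gene, had one in 148 endothelial nuclei, at 2894 CPM against 7850 in glia. The 16 glial genes summed to 3996 CPM against 17078 in glia, with Sox10 at 0 by the rule. The mesenchymal genes summed to 732 CPM against 7238 in mesenchyme, which was itself chosen by Pdgfra. Pdgfra was at 0 by the rule, and Lum, Cldn1 and Krt19 were also at 0. The list includes the transporter gene Slc2a1, which had 26 of the 212 UMIs of the list. The 14 genes of mural cells, the pericytes and smooth muscle that wrap vessels, summed to 528 CPM in endothelial nuclei and 182 in all others, with Acta2 and Cspg4 at 0 and Pdgfrb at 8 UMIs in 2 nuclei. Rgs5, a pericyte gene, had 74 UMIs in 22 nuclei. Of 7 mural genes, 120 nuclei had none, 27 had 1 and 5 had 2 or more. The part of free RNA, doublets or attached cells in the levels below was not tested. Among the highest doublet scores (7.26% of kept nuclei) were 17 endothelial nuclei (11.2%) and 403 of the other 5634 (7.15%).

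**Figure D1:**
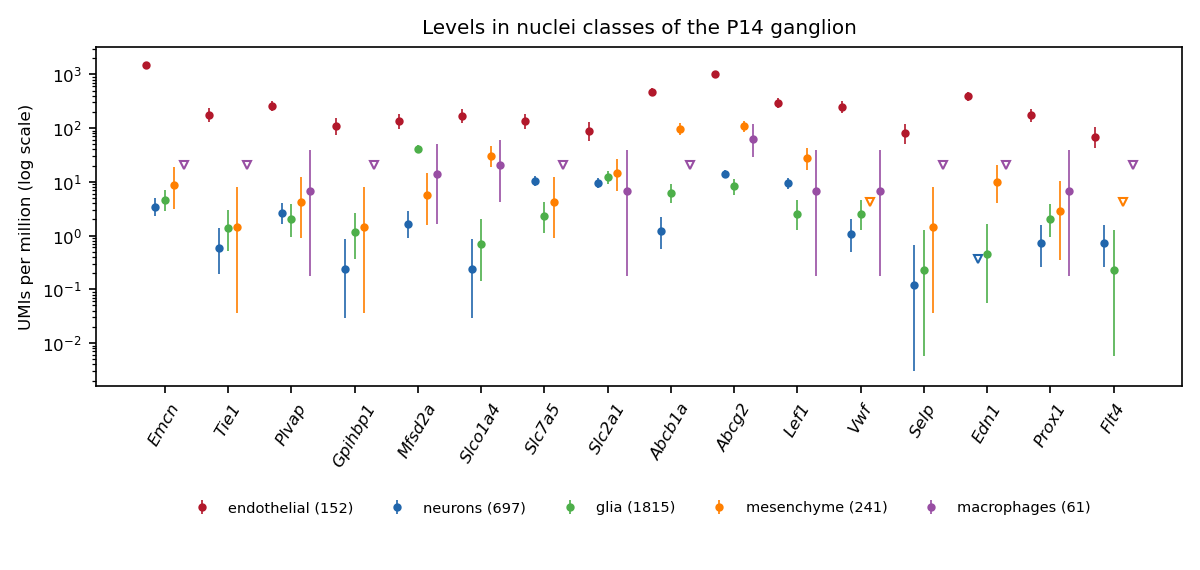
Summed UMIs as CPM (log scale) of 16 genes in 5 classes of ganglion nuclei, with exact 95% Poisson intervals; an open triangle is the level of 3 UMIs where none was counted. Emcn stands at 1516 in endothelial nuclei, below 10 in neurons, glia and mesenchyme and without a UMI in macrophages, while Mfsd2a also has a level of 41.2 in glia.

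Tight junction genes of endothelium were represented by Cldn5 and by scaffold proteins, and several epithelial members were not found. Cldn5 had 38 UMIs in 26 nuclei, 131 CPM (92.9 to 180), against 1.39 CPM in all other nuclei. Tjp1, the scaffold ZO-1, stood at 487 CPM in endothelial nuclei, but also at 240 in neurons and 289 in mesenchyme, a ratio of 2.25 (1.89 to 2.66) over all other nuclei. F11r, a junctional adhesion molecule, was 8.17-fold (5.79 to 11.3), and Afdn, the afadin linker, 4.29-fold (3.60 to 5.08) higher than in other nuclei. Ocln, the gene of occludin, had 3 UMIs in 3 nuclei, and Cldn1, Cldn3, Cgn, Marveld2 and Marveld3 had none, which, taken as a limit of 3 UMIs, allows a level of up to 10.4 CPM. Of the 16 genes of the list that were tested, 4 were at least 4-fold higher, 0 lower and 12 in between, with a median ratio of 2.48, or 2.14 with sums of 0 taken as 0 in place of their bound. Cldn5 is 1 of the 4 and was used by the rule, and without it 3 of 15 were at least 4-fold higher, with a median ratio of 2.25.

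Several transporters of the blood-brain and blood-nerve barriers had a UMI in a minority of the nuclei. At the depth of these nuclei, one without a UMI may still hold the transcript. Mfsd2a, a lipid transporter whose presence keeps vesicle transport low in brain capillaries, had 39 UMIs in 16 nuclei, a level of 135 CPM (95.8 to 184). Its ratio over all other nuclei was 7.60 (5.32 to 10.6), while glia held it at 41.2 CPM in 8.87% of nuclei, against 10.5% of endothelial nuclei. Slco1a4, an organic anion carrier, had 49 UMIs in 25 nuclei (169 CPM, 30.3-fold, 21.2 to 42.7). Slc7a5, the large neutral amino acid transporter, had 39 UMIs in 21 nuclei, 135 CPM against 10.4 in neurons. Slc2a1, the glucose transporter GLUT1, had 26 UMIs in 14 nuclei, 89.8 CPM against 9.56 in neurons. A UMI of Slc2a1 was found in 9.21% of endothelial nuclei and in 10.0% of the deeper neurons, and in 1.97% and 0.574% when each nucleus was thinned to 500 UMIs, so no order is read from the shares.

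The efflux pumps were more widespread within the class. Abcg2 had 292 UMIs in 96 nuclei, 1008 CPM (896 to 1131), and was 34.5-fold (29.9 to 39.8) higher than in other nuclei. Abcb1a, the drug pump P-glycoprotein, had 137 UMIs in 63 nuclei, 473 CPM, and was 27.7-fold (22.6 to 33.9) higher. With nuclei thinned to 500 UMIs, Abcg2 was found in 30.3% of endothelial nuclei and 0.861% of neurons. The zinc transporter gene Slc39a10 stood at 328 CPM in 40 nuclei. Slc38a5, a glutamine transporter, had no UMI, and Tfrc, the transferrin receptor, had 18 UMIs at 62.2 CPM, against 174 CPM in neurons. Of the 21 tested genes of the transport list, 12 were at least 4-fold higher, 0 lower and 9 in between, with a median ratio of 4.97.

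Genes of the Wnt programme that maintains the barrier in the brain were found in the same class. Lef1, a transcription factor of the pathway, had 84 UMIs in 45 nuclei, 290 CPM (231 to 359), against 9.85 CPM in other nuclei. Apcdd1, a Wnt-induced membrane protein, had 26 UMIs in 17 nuclei and was 28.8-fold (17.5 to 46.2) higher. The receptor complex genes Fzd4 and Tspan12 were 12.5-fold (7.33 to 20.2) and 9.74-fold (7.05 to 13.2) higher, while Reck was at 27.6 CPM in endothelial nuclei and 53.8 in all others. Axin2, a general target of the pathway, had 6 UMIs, and Foxf2 and Notum had none. Foxq1, another transcription factor gene, had 3 UMIs in 1 nucleus. Of the 15 tested genes, 8 were at least 4-fold higher, 0 lower and 7 in between, with a median ratio of 4.31.

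Genes of fenestrae and diaphragms were also found in the class. Plvap had 75 UMIs in 40 nuclei, with at most 5 UMIs in 1 nucleus, a level of 259 CPM (204 to 325) against 2.57 in all other nuclei, a ratio of 101 (69.8 to 146). A UMI of Plvap was found in 26.3% (19.5 to 34.1) of endothelial nuclei with a median of 1716 UMIs, and in 3.01% of neurons with a median of 10305. Thinned to 500 UMIs, the shares were 9.21% and 0.143%. Plpp1, a lipid phosphatase, stood at 570 CPM in 70 nuclei (12.8-fold, 10.8 to 15.1) and Plpp3, of the same family, at 1191 CPM. Gpihbp1, which carries lipoprotein lipase into capillaries, had 32 UMIs in 22 nuclei, and Exoc3l2 37 UMIs in 28. Cd36, a fatty acid carrier, had 25 UMIs in 7 nuclei, and Ehd3 and Gata4, markers of other fenestrated beds, had none. Of the 12 tested genes of the list, 9 were at least 4-fold higher, 0 lower and 3 in between, with a median ratio of 8.42. Of the 12 caveolar and vesicle genes, 4 were at least 4-fold higher: Cav1, the main coat protein of caveolae (473 CPM in 69 nuclei, 19.1-fold, 15.7 to 23.1), Cav2, Cavin1 and Cavin2. General vesicle genes such as Cltc, the clathrin heavy chain (1.32-fold, 0.939 to 1.82), were close to the level of other nuclei.

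Vessel-type genes were each found in part of the class. Of the 14 tested genes of the venous list, 9 were at least 4-fold higher, 0 lower and 5 in between, with a median ratio of 11.7. Vwf, the clotting protein stored in endothelial granules, had 72 UMIs in 32 nuclei, 249 CPM (195 to 313) against 3.86. Selp, the P-selectin that recruits leukocytes, had 23 UMIs in 12 nuclei against 5 UMIs in all 5634 other nuclei. Vcam1, another leukocyte adhesion molecule, had 65 UMIs in 12 nuclei. Tll1, a secreted protease, had 171 UMIs in 39 nuclei (20.1-fold, 16.9 to 23.9). Nr2f2, the transcription factor that sets venous identity, stood at 380 CPM in endothelial nuclei and at 350 in glia.

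Of the 17 tested arterial genes, 9 were at least 4-fold higher, 1 lower (Alpl, with 1 UMI) and 7 in between, with a median ratio of 4.62. Edn1, the vasoconstrictor endothelin, had 112 UMIs in 26 nuclei, 387 CPM (318 to 465), against 1.48 CPM in all other nuclei and no UMI in neurons. Cxcl12, a chemokine, had 167 UMIs in 39 nuclei, and Vegfc, a growth factor for lymph vessels, 58 UMIs in 22. Bmx, an arterial kinase, had 29 UMIs in 17 nuclei. The arterial connexins were nearly absent, with 4 UMIs of Gja4 and 1 of Gja5, and Gkn3 had none. Arl15, also on the list, held 788 of the 1633 UMIs of the arterial list, in 110 nuclei. Dll4, a Notch ligand, had 11 UMIs in 9 nuclei, and Hey2, a Notch target, was at 34.5 CPM against 252 in glia. Of the 10 tested capillary genes, 5 were at least 4-fold higher, 0 lower and 5 in between, with a median ratio of 3.57. Among them Fabp4, a fatty acid binding protein, had 73 UMIs in 22 nuclei, Cd300lg 24 UMIs in 20, and Sgk1, a stress-induced kinase, 61 UMIs in 34.

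Some barrier genes and venous-type genes were found in different nuclei. For a description, 7 barrier genes (Mfsd2a, Slco1a4, Slc7a5, Slc2a1, Lef1, Apcdd1 and Abcb1a) and 7 venous-type genes (Vwf, Selp, Vcam1, Edn1, Bmp4, Bmp6 and Tll1) were chosen after their values were seen. Edn1 stands on the arterial list, and Bmp4 and Bmp6 stand on the list of bone morphogenetic proteins. The name venous-type is thus a label for the set and does not name a vessel. Of the 32 nuclei with Vwf, 23 had Mgp and 10 had Bmx, both genes of the arterial list. At least 3 of the 7 barrier genes were found in 30 nuclei, at least 3 of the 7 venous-type genes in 27, and at least 3 of both in 0, leaving 95 nuclei with under 3 of each. Those 95 were shallower, with a median of 1237 UMIs against 2092 and 2703 in the 2 sets. The overlap to be expected from the counts alone was not computed. Since the sets were also chosen on these values, the 0 is only a description. None of the 16 nuclei with Mfsd2a had a UMI of Bmp6, 1 had one of Vwf, and 13 of them had one of Lef1. Of the 45 nuclei with Lef1, 0 had Selp and 22 had Sox17. Of the 32 nuclei with Vwf, 18 had Edn1 and 17 had Tll1. Abcb1a, also of the barrier set, was in 13 of the 32 nuclei with Vwf (40.6%) and in 41.4% of all endothelial nuclei. Such shares depend on depth, and levels of Abcb1a are given below. Abcg2, a barrier transport gene left out of the set, was in 96 nuclei, with genes of either set. It was in 25 of the 32 nuclei with Vwf, 12 of the 12 with Selp and 11 of the 12 with Vcam1. Of the nuclei with Mfsd2a it was in 13 of 16, and of those with Lef1 in 31 of 45. Rgs5, the pericyte gene, was in 12 of the 45 nuclei with Lef1, 7 of the 17 with Apcdd1 and 5 of the 16 with Mfsd2a. It was in 1 of the 32 nuclei with Vwf, 1 of the 34 with Bmp6 and 0 of those with Selp, Tll1, Edn1 or Vcam1. Its part in the result was not tested.

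Plvap was found in nuclei of both sets. It was detected in 11 of the 30 nuclei with barrier genes, with 30 UMIs (404 CPM), and in 11 of the 27 with venous-type genes, with 14 UMIs (202 CPM). Among the 95 others, 18 nuclei held 31 UMIs of it (212 CPM). Of the 40 nuclei with Plvap, 14 had Lef1, 5 had Mfsd2a, 12 had Bmp6 and 7 had Vwf. When the nuclei were split by the fixed venous list, the 61 with at least 3 of its 18 genes had 7.15 CPM of Mfsd2a, 107 of Lef1 and 264 of Plvap. The 55 nuclei with 1 or 2 venous genes had 276, 453 and 246 CPM of the same genes, and the 36 with none had 208, 478 and 270. Abcb1a was at 250 CPM in the 61 nuclei, 660 in the 55 and 727 in the 36. The 61 nuclei were also the deepest, with a median of 2226 UMIs against 1602 and 1240. Over the whole fixed barrier lists the nuclei were closer, with a median of 5 genes (1 to 15) in the 61 nuclei, 6 (1 to 20) in the 55 and 6 (0 to 16) in the 36.

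**Figure D2:**
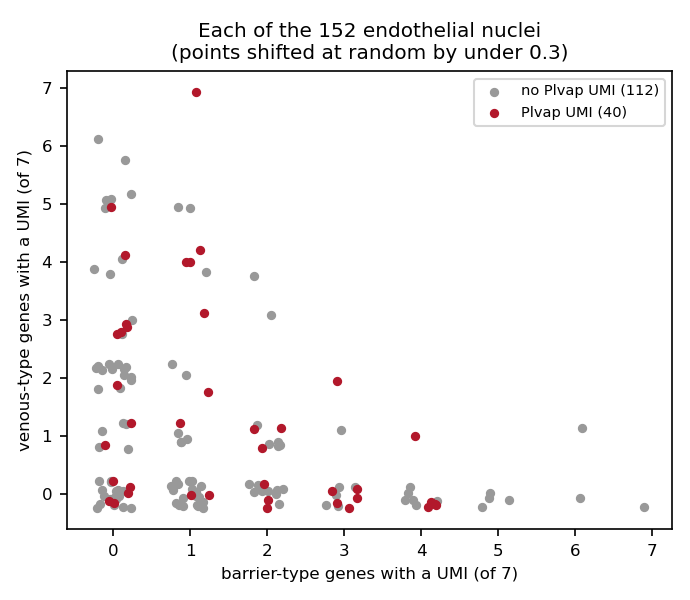
Each point is 1 of the 152 endothelial nuclei, by the number of 7 barrier genes (horizontal) and of 7 venous-type genes (vertical) with a UMI. Both sets were chosen after their values were seen, and venous-type is a label for a set that also holds Edn1, Bmp4 and Bmp6. No nucleus has 3 or more of each, and the 40 nuclei with a UMI of Plvap (red) lie along both axes.

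The nuclei were also clustered among themselves without the genes of the lists and of the rule, which gave 7 clusters of 45, 33, 20, 19, 13, 12 and 10 nuclei. Cluster 1 (leading genes Hbb-bt, Nebl and Sh3rf1) held 22 of the 39 UMIs of Mfsd2a, 42 of the 84 of Lef1, 55 of the 95 of Slc39a10, 119 of the 167 of Cxcl12 and 23 of the 44 of Sox17. Hbb-bt is a haemoglobin gene, and blood transcripts were uneven within the cluster. Of its 196 UMIs of a list of macrophage and blood genes that includes Hbb-bs, 109 were in 1 nucleus and 66 in another. Cluster 2 (Unc5c, Cacna1e and Cacnb2) held 51 of the 72 UMIs of Vwf, 97 of the 112 of Edn1, 171 of the 232 of Bmp6 and 41 of the 47 of Bmp4. It had no UMI of Mfsd2a, Lef1, Slc39a10, Cxcl12 or Gpihbp1. Genes of the arterial list were in cluster 2 as well as venous ones. Cluster 2 held 134 of the 199 UMIs of Mgp, a calcification inhibitor of vessel walls, and 16 of the 29 of Bmx. The cluster is thus given no vessel name. The whole arterial list, which includes Cxcl12, stood at 5569 CPM in cluster 2 and 7883 in cluster 1. It was at 6688 CPM in cluster 7 and at 2336 to 5646 in the others. Cluster 5 (leading genes P3h2 and Pparg among others) held 57 of the 59 UMIs of Stab2, a scavenger receptor of sinusoidal and lymphatic endothelium, 34 of the 65 of Vcam1, 14 of the 23 of Selp and 53 of the 171 of Tll1. A UMI of Abcg2 was found in all 13 of its nuclei and one of Nr2f2 in 11.

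Cluster 3 (Scn3a, Adamtsl1 and Neo1) had 7 of its 20 nuclei among the highest doublet scores. Cluster 7 (Nr5a2, Lrrc3b and Xylt1) had 14 UMIs of Lef1 and 11 of Slc7a5 in its 10 nuclei. Cluster 4, led by Lingo2 and mitochondrial genes, had a median of 6 pan-endothelial genes per nucleus. It held 19 UMIs of Plvap in 8 of its 19 nuclei. Its neuronal list stood at 6235 CPM, the highest of the 7 clusters, and its glial list at 6160 CPM. In cluster 6, led by Gm31356, Trpm3 and Sorcs1, the glial list stood at 7281 CPM, the pan-endothelial list at 4166 CPM, and 5 of 12 nuclei were among the highest doublet scores. In clusters 1, 2, 4, 5 and 7 these were 2 of 45, 1 of 33, 2 of 19, 0 of 13 and 0 of 10 nuclei. The mural list stood at 947 CPM in cluster 1, 239 in cluster 2, 567 in cluster 5 and 1143 in cluster 7. Plvap was found in each of the 7 clusters, in 2 to 11 nuclei. Under 5 other settings of the clustering the adjusted Rand index to these clusters was 0.392 to 0.773, and between 87.9% and 100% of cluster 2 and between 84.6% and 100% of cluster 5 stayed in 1 cluster. The largest part of cluster 1 was 44.4% to 97.8%, of cluster 3 50% to 80%, of cluster 4 52.6% to 100%, and of clusters 6 and 7 50% to 100% each.

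**Figure D3:**
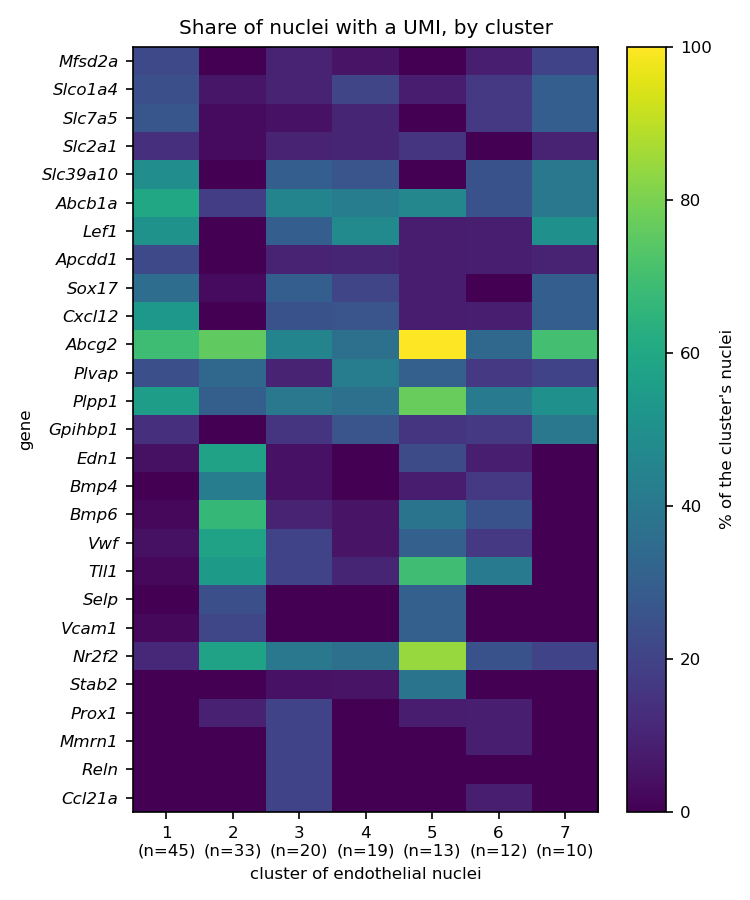
Share of nuclei (colour, percent) with a UMI of each gene (rows) in the 7 clusters of endothelial nuclei (columns, with the number of nuclei). Mfsd2a, Lef1 and Cxcl12 have no UMI in cluster 2, where Bmp6 is found in 66.7% of nuclei, and Plvap has UMIs in every column.

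Lymphatic genes were concentrated in a few nuclei. Prox1, the transcription factor that sets lymphatic identity, had 50 UMIs in 9 nuclei, 173 CPM (128 to 228), and 39 of them were in 3 nuclei. At least 3 of the 10 lymphatic genes were found in 6 nuclei, which held 19, 1, 1, 8, 4 and 12 UMIs of Prox1. Other genes known from lymphatic endothelium, the chemokine Ccl21a, the matrix protein Mmrn1 and the secreted protein Reln, had 15, 17 and 20 UMIs in the class, of which 13, 15 and 20 fell in 4 nuclei of cluster 3. The 6 nuclei had a median of 3370.5 UMIs, and 5 of them were among the highest doublet scores. In the set was 1 nucleus that had 23 UMIs of Stab2 beside 1 each of Prox1 and Flt4. Of the 7 tested genes of the list, 3 were at least 4-fold higher in endothelial nuclei (Prox1, Stab2 and Mmrn1), 0 lower and 4 in between. Lyve1 and Pdpn, other markers of lymph vessels, had 7 UMIs each in 6 nuclei.

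Kdr, Tek, Tie1, Nrp1 and Nrp2, receptor and coreceptor genes of vascular growth factors, had higher levels in endothelial than in other nuclei, while the ligand genes Vegfa and Angpt1 had few UMIs. Of the 12 tested genes of the VEGF and angiopoietin list, 6 were at least 4-fold higher, 0 lower and 6 in between, with a median ratio of 3.16. Beside Kdr, Tek and Tie1, the coreceptor genes Nrp1 and Nrp2 stood at 919 CPM in 93 nuclei and 383 CPM in 50. Vegfa had 9 UMIs, 31.1 CPM against 160 in glia, Angpt1 5 UMIs, 17.3 CPM against 350 in mesenchyme, and Angpt2 18 UMIs. Of the 9 tested Notch genes, 1 was at least 4-fold higher, 0 lower and 8 in between, with a median ratio of 0.968. The shares over all genes tested were 4.64% higher and 6.22% lower. Notch4, the receptor of endothelium, had 14 UMIs in 14 nuclei, and Notch1 38 UMIs in 30, at 131 CPM against 155 in glia.

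A list of 19 genes covered bone morphogenetic protein (BMP) and transforming growth factor beta signalling. Of the 19, 11 were at least 4-fold higher, 1 lower and 7 in between, with a median ratio of 5.10. Over all genes tested the shares were 4.64% higher and 6.22% lower. Eng, the coreceptor endoglin, stood at 694 CPM in 82 nuclei against 5.15 in all others, and its partner Acvrl1 at 65.6 against 2.33. Eng is also a gene of the pan-endothelial list. The target genes Id1, Smad6 and Smad7 were 16.5-fold (13.4 to 20.3), 6.14-fold (3.86 to 9.33) and 9.25-fold (6.31 to 13.2) higher. The ligand genes Bmp6 (232 UMIs in 34 nuclei) and Bmp4 (47 in 18) were also present in mesenchyme, at 308 and 81.5 CPM. Bmpr1a, a receptor gene of the other classes, was the member that was lower, at 24.2 CPM against 144.

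Semaphorin receptors, the family that the study looked for on neurons, were also present on the endothelial side. Of 11 receptor genes, 3 were at least 4-fold higher (Nrp1, Nrp2 and Plxnd1), 2 lower (Plxnb1 and Plxnc1) and 6 in between, with a median ratio of 2.05. Nrp1, a coreceptor for semaphorins as well as VEGF, was at 919 CPM against 147 in neurons, and Nrp2 at 383 against 29.3. Plxnd1, the plexin of vessels, had 72 UMIs in 50 nuclei, 249 CPM against 47.0 in neurons. Plxna4, a plexin of sensory neurons, had 206 UMIs in 59 nuclei, 711 CPM (618 to 815) against 313 in neurons, and Plxna2 was at 262 against 165. Plxna3 and Plxnb3 had no UMI. Over all genes tested, 4.64% were higher and 6.22% lower. Among the 20 ligand genes, 3 were at least 4-fold higher, 2 lower and 15 in between. These were Sema6a, a membrane semaphorin (304 UMIs in 98 nuclei, 7.37-fold, 6.53 to 8.30), Sema7a, which is anchored to the membrane by a lipid (42 UMIs in 27 nuclei, 145 CPM against 5.26 in neurons), and Sema6b with 9 UMIs. Sema3b itself had 8 UMIs in 7 nuclei, 27.6 CPM (11.9 to 54.4) against 73.9 in glia.

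Matrix and immune genes were described in the same way. Of 20 basement membrane and integrin genes, 5 were at least 4-fold higher, 1 lower and 14 in between, with a median ratio of 2.58. The collagen genes Col4a1 and Col4a2 stood at 694 and 508 CPM, and glia held them at 268 and 249. Lama2, a laminin chain of Schwann cells and fibroblasts, was at 111 CPM against 1724 in glia. Lama5 was at 51.8 CPM against 2.82 in all other nuclei, and Itga5, a fibronectin receptor chain, at 159 against 7.57. Of 17 tested genes for leukocyte adhesion and antigen presentation, 7 were at least 4-fold higher, 0 lower and 10 in between, among them Ly6e (463 CPM in 75 nuclei), Ly6c1 (283 CPM in 36) and Ifitm3 (152 CPM in 31). Class II antigen presentation genes were sparse, with 0 UMIs of H2-Ab1 and 5 of H2-Aa.

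Outside the lists, the 20 genes with the highest lower bound of the ratio were Nr5a2, Dipk2b, Gimap6, Klhl4, Zfp366, Prom1, Dach2, Gimap8, Rasgrp3, Col13a1, Prkch, C130074G19Rik, Tead4, Cd93, Acer2, Nostrin, Tnfsf10, Calcrl, Clic5 and Ifi203-ps. Prkch, a protein kinase C, was the most widespread of them with 284 UMIs in 105 nuclei, 981 CPM against 14.8. Calcrl, the receptor of calcitonin gene-related peptide and adrenomedullin, had 292 UMIs in 87 nuclei, 1008 CPM (896 to 1131) against 19.0 in all other nuclei and 85.8 in mesenchyme. Gimap6, a GTPase gene of lymphocytes and endothelium, had 121 UMIs in 60 nuclei. Cd93, a membrane glycoprotein of endothelium, had 64 UMIs in 41 and Nostrin, which binds nitric oxide synthase, 40 in 28. Nr5a2, a nuclear receptor, had 42 UMIs in 17 nuclei against 8 in all other nuclei. The 5 genes with the lowest upper bound were Zmat4, Gm20642, Tnr, 1700111E14Rik and Grm7. Grm7, a glutamate receptor gene, was at 76.0 CPM against 3317 in neurons, and Zmat4, Gm20642 and Tnr had no UMI.

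The same rule, with a mitochondrial limit of 20% for cells, chose 232, 66, 3282, 600 and 492 endothelial cells in the nerve, in the order of ages from P0 to P60. Their values stand beside those of the ganglion without a comparison, since cells and nuclei, depth and the version of the counting software differ between the libraries and cannot be told apart from tissue. Plvap was at 182, 204, 743, 1486 and 1762 CPM in the nerve in the order of ages, and at 259 in the ganglion at P14. Mfsd2a was at 0.461, 62.6, 123, 35.2 and 22.0 CPM in the nerve and 135 in the ganglion. For Slc7a5 the nerve values were 10.1, 316, 155, 42.7 and 33.0 CPM and the ganglion value 135. Lef1 was not found at P0 and was at 35.8, 54.9, 18.8 and 20.8 CPM at the later ages, with 290 in the ganglion. Cldn5, between 459 and 1345 CPM in the nerve, was at 131 in the ganglion, and Cd36, between 356 and 1674, was at 86.3. Tll1 was between 0.922 and 18.7 CPM in the nerve and at 591 in the ganglion. Plxna4 was between 3.23 and 33.9 CPM in the nerve cells and at 711 in the nuclei, and Stab2 had 0 to 6 UMIs in each nerve library and 59 in the ganglion. Abcg2 was between 180 and 522 CPM in the nerve and at 1008 in the ganglion, and Abcb1a between 66.9 and 406 against 473. For Vwf the ganglion value of 249 lay within the nerve range of 116 to 549.

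**Figure D4:**
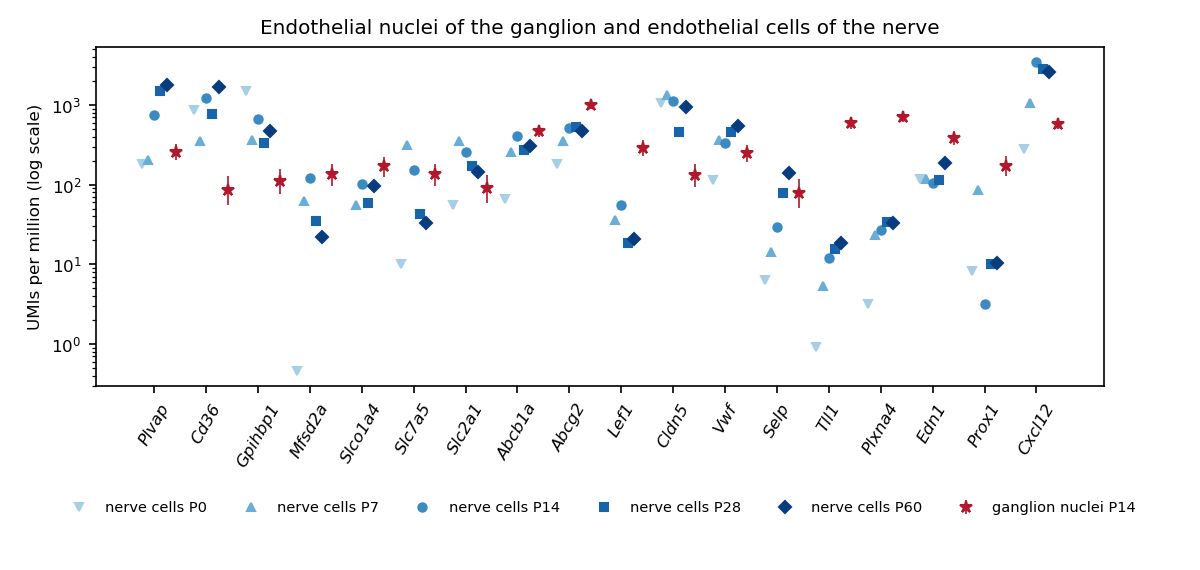
Summed UMIs as CPM (log scale) of 18 genes in endothelial cells of the nerve at 5 ages (blue) and in endothelial nuclei of the ganglion at P14 (red, exact 95% Poisson interval); values of 0 are not drawn. Genes for which red stands above all blue points include Lef1, Tll1, Plxna4, Abcg2, Abcb1a and Mfsd2a. Those for which it stands below all of them include Cldn5 and Cd36. The libraries differ in cells or nuclei and in software.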

How the data were processed

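The authors deposited, per library, a matrix of UMI counts, gene by barcode. The ganglion matrix was made with Cell Ranger 7.1.0 per the file headers, which give 7.0.0 for the nerve at P7 and 5.0.1 for its other ages. The submitters' processing notes name Seurat and the genome build mm9. Whether intronic reads were counted, and on which strand, is not given in the sources used here, so counts of overlapping or antisense genes and of near copies are uncertain.

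Barcodes were kept from 500 UMIs and 300 genes upward, with up to 5% mitochondrial UMIs in nuclei and up to 20% in nerve cells. UMIs were summed over the nuclei of a class and divided by the class total (CPM), with exact Poisson, Clopper-Pearson and conditional 95% intervals. Other classes were defined as follows, with neurons having at least 3 of the 4 neuronal genes and no endothelial marker. Glia had Sox10, mesenchyme Pdgfra and macrophages Csf1r, each with at most 1 neuronal gene, at most 1 endothelial marker and neither of the other class genes. Ratios were computed for genes with at least 50 UMIs over all kept ganglion nuclei, a sum of 0 was set to 3 UMIs as a bound, and a gene with a sum of 0 in endothelial nuclei was never called higher. Median of ratios scaling shifted all log2 ratios by 0.19, with 630 genes higher and 1218 lower. Shares were also computed with each nucleus thinned to 500 UMIs, which left out no nucleus.

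Doublets were scored with Scrublet in scanpy 1.11.5. Its own threshold called 0% of nuclei, so nuclei were kept, and removing the highest 8% (7.26% because of ties) served as an alternative. Endothelial nuclei were clustered with the Leiden algorithm (igraph 0.11.9) at resolution 1 on 1000 variable genes, 10 components and 10 neighbours, a step added after the data were seen. Ratio, interval and thinning functions were tested on simulated data.

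The members, the gene lists and the tests were chosen with earlier results of these data known. Every list gene could be named, except a few items that are not reported here, and outside the lists the 20 genes with the highest lower bound and the 5 with the lowest upper bound of the ratio. Alternatives varied the rule, depth, doublets, mural nuclei, scaling, comparison nuclei and thresholds.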

Additional observations from a re-analysis of the deposited data

How the results depend on the processing

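No paired analysis was possible because each group has 1 library and the replicate numbers in the titles stand for ages. The number of endothelial nuclei was 108 to 147 under the other rules tried, against 152. Of the 16258 genes, 754 were at least 4-fold higher and 1011 lower in endothelial nuclei. With at least 200 UMIs per gene 383 were higher, and with no minimum 1984. With a ratio of 2 as the limit 2720 were higher and 2525 lower, and with a ratio of 8, 294 and 385. Under each other setting tried, both counts stayed within 1.5 times. The ratios of 50 genes were followed under 16 settings, and none was counted as reversed. A reversal was counted only where a ratio at least 4-fold from 1 crossed 1, so smaller ratios could not be counted. Most settings kept largely the same nuclei, so such a reversal was unlikely from the start. Against other nuclei without neurons 26 of the 50 moved beyond their counting interval, as did 28 with the mean over nuclei and 0 to 7 under the rest. Leaving out nuclei with under 3 pan-endothelial genes, leaving out clusters 4 and 6, and the clusterings were chosen after seeing the data. Depth sets a limit for single genes: no UMI in endothelial nuclei, taken as a limit of 3 UMIs, allows 10.4 CPM.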

Other observations

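Haemoglobin transcripts were unevenly spread over the endothelial nuclei. Hbb-bs, a beta globin gene of red blood cells, had 222 UMIs in 40 of the 152 nuclei, 767 CPM (669 to 874) against 90.9 in all other ganglion nuclei, and 162 of these UMIs (73.0%) were in 3 nuclei. Hba-a1, an alpha globin gene, had 66 UMIs in 13 nuclei, of which 50 were in 3. The 30 nuclei with at least 3 of the 7 barrier genes held 138 of the Hbb-bs UMIs in 4 nuclei, and cluster 1 held 146 in 11. The gene was found in 26.3% of endothelial nuclei, 21.8% of the deeper neurons and 13.3% of glia, and in 11.8%, 1.29% and 4.08% with nuclei thinned to 500 UMIs. The protocol in the labels includes a step that lyses red blood cells.

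Genes of dividing and of sprouting cells were found in part of the nuclei. The 16 cell cycle genes had 75 UMIs in 27 nuclei, and 43 of these were in 4 nuclei. Their level was 259 CPM, against 135 in all other nuclei, 37.5 in neurons, 210 in glia, 130 in mesenchyme and 186 in macrophages. Among them were 9 UMIs of Mki67 in 8 nuclei and 10 of Top2a in 4. Aurkb, Cdk1, Rrm2 and Mcm5 had none, and of the 13 tested genes 1 was at least 4-fold higher, 0 lower and 12 in between. Over all genes tested, 4.64% were higher and 6.22% lower. Of the 9 tested tip cell genes 3 were at least 4-fold higher, 0 lower and 6 in between. Within that list Esm1 had 3 UMIs and Apln 2, and Kcne3 and Chst1 had none. Aplnr, from the capillary list and the receptor of apelin on veins and growing capillaries, had 28 UMIs in 22 nuclei.

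Genes of other blood cells were close to the limit of detection. Ptprc, the leukocyte surface protein CD45, had 3 UMIs in 2 nuclei and Cd3e and S100a8 had none, while Cd79a, a B cell gene, had 8 UMIs in 4 nuclei.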
